A study of Mus musculus with 82 samples.

Results

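The DNA replication genes examined here are 42 mouse genes that encode the machinery copying the genome in S phase. They were taken by symbol from the deposited gene tables, which list 56941 genes, and each of the 42 symbols was found in both tables. By role they comprise 6 subunits of the MCM helicase, 4 origin recognition and loading factors, 7 factors that activate the helicase, 9 primase and polymerase subunits, 6 clamp and clamp loader genes, 2 genes of Okazaki fragment maturation, 5 genes of nucleotide supply and 3 genes that rebuild chromatin behind the fork. All 42 passed the filter on low counts in both experiments, and the lowest estimated count of any of them in any library was 19 for the time course and 29 for the start-day libraries.

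Replication starts at origins marked by the origin recognition complex, where Cdc6 and Cdt1 load the MCM helicase in G1. In S phase Ticrr, Mcm10, Cdc45 and the GINS complex turn the loaded helicase into a moving fork, primase and the polymerases copy both strands behind it, and Pcna holds the polymerases on DNA. Most of these genes are transcribed in cells that enter the cycle and are low in resting cells, and in skin the dividing cells are mainly keratinocytes of the basal layer, whose turnover rises in psoriasis-like inflammation.

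The 82 RNA-seq libraries were made from right ear punches taken from female C57BL/6J Rj mice, whose age is not in the labels used here. Imiquimod cream at 5%, which activates the innate receptor TLR7, was put on the ears once a day from day 0 to day 7, and some mice drank water with IDOR-1117-2520, which blocks the chemokine receptor CCR6. In the time course, 52 libraries covered sham ears, imiquimod ears and ears with both imiquimod and the drug, each at day 2, day 5 and day 8. In the start-day experiment, 30 libraries covered sham ears, imiquimod ears and 3 sets of imiquimod ears in which the drug began on day 0, day 3 or day 5. Each group had 6 libraries except day 5 sham, which had 4. The sham ears are called vehicle in 1 label, and no genetic change is stated for any group. The start day was taken from the treatment label and the title, which give the same day, while the time label of the groups begun on day 3 and day 5 gives the other day. The day on which these 2 groups were sampled is therefore not known, while the sham, imiquimod and day 0 groups of that experiment carry day 8, so their comparisons with those groups may also differ in the day of sampling. The stated protocol has the drug given from before the first imiquimod dose to the end, so the timing within the start-day groups rests on their treatment label. The labels do not tie libraries to animals, so a p-value here measures spread among libraries, which may be technical.

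Libraries of the time course held 13098687 to 35363262 estimated counts and those of the start-day experiment 24074053 to 35545765. The basal keratinocyte genes Krt5 and Krt14 were at 6240 to 7150 and 4500 to 4760 CPM (counts scaled to the TMM-adjusted size of each library) in day 5 sham ears, so these libraries held RNA of the epidermis. The closest pair of libraries within a group differed by a chi-square per gene of 4.13, above sampling noise, so each was counted once. Imiquimod libraries 9 and 11 of day 2 had the highest summed CPM of the 6 neutrophil markers in their group, 1150 and 2180 against 147 to 794 in the other 4. They also held the highest summed levels of the replication genes, 2120 and 1990 CPM against 1660 to 1810 CPM in the other 4. Leaving them out therefore also removes the top replication gene levels of that group. Counts of called genes that rest on them are given without them too.

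Sham ears expressed the replication genes at a steady low level, and imiquimod raised nearly all of them at every day. The summed level of the 42 genes in sham ears ran from 748 to 931 CPM at day 2 (median 854), from 787 to 904 CPM at day 5 (median 850) and from 851 to 1020 CPM at day 8 (median 857). Imiquimod ears held 1660 to 2120 CPM at day 2 (median 1780), 1910 to 2280 CPM at day 5 (median 2090) and 1760 to 2100 CPM at day 8 (median 1890). Every imiquimod ear lay above every sham ear at each day. The ratio of the group means was 2.18 at day 2, 2.46 at day 5 and 2.15 at day 8. In the start-day experiment sham ears held 709 to 845 CPM (median 757) and imiquimod ears 1640 to 1820 CPM (median 1750), a ratio of means of 2.27. In bulk tissue, more cells that express these genes cannot be told apart from more RNA of them per cell.

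**Figure D1:**
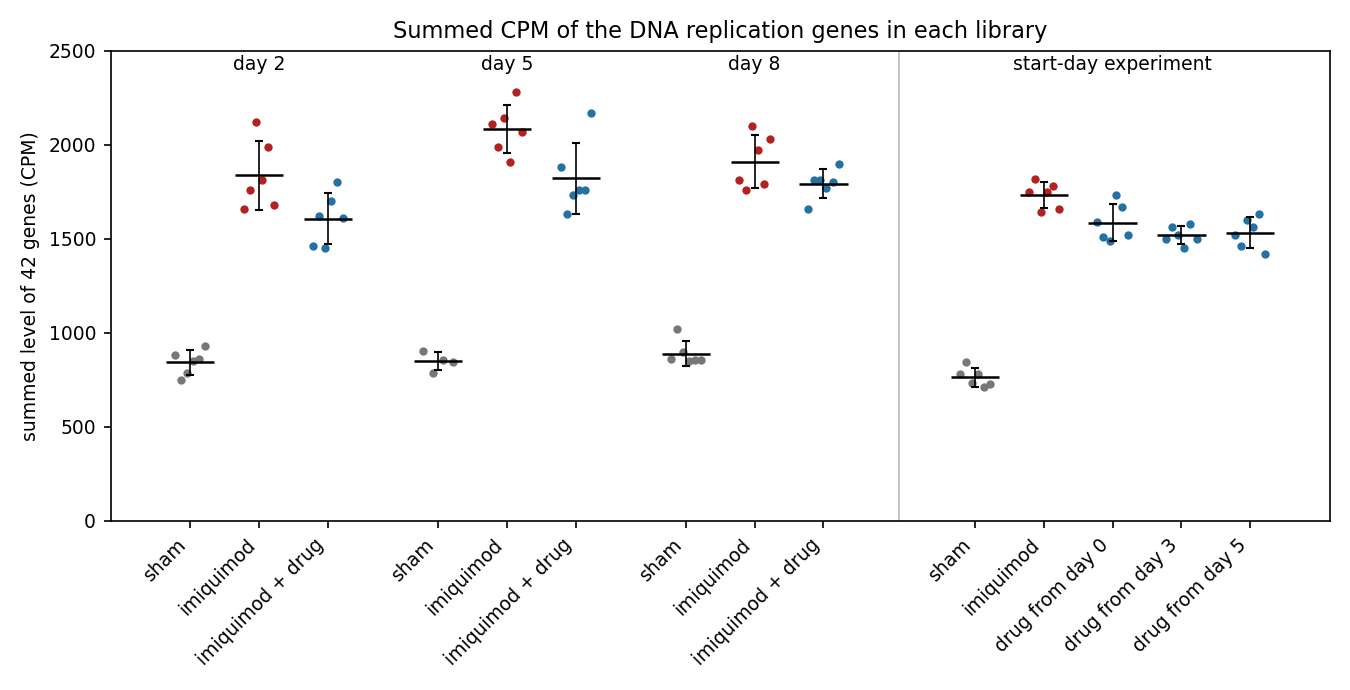
Summed level in CPM of the 42 DNA replication genes (vertical axis) in each library, by group (horizontal axis), with points for libraries, long bars for group means and error bars for the SD. Sham libraries sit between 709 and 1020 CPM, and no library with imiquimod, with or without the drug, falls below 1420 CPM.

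Between 41 and 42 of the 42 genes passed the test as higher with imiquimod in each comparison, and none passed as lower (edgeR quasi-likelihood test, Benjamini-Hochberg adjusted p under 0.05 over all tested genes). At day 2 all 42 rose, with a median log2 fold change of 1.02, where 57.7% of all 18780 tested genes were called and 29.2% were called higher. At day 5, 41 rose with a median of 1.18, where 70.4% of genes were called and 34.6% called higher. At day 8, 41 rose with a median of 1.01, where 68.1% were called and 34.5% called higher. In the start-day experiment 41 of 42 rose with a median of 1.09, where 78.1% of 18434 genes were called and 38.1% called higher. The share of replication genes called higher was thus more than the share of all genes in each comparison. Changes of at least 1 on the log2 scale were found in 23, 25 and 23 of them at days 2, 5 and 8 and in 24 in the start-day experiment, where such increases made up 6.4%, 12.1%, 10.2% and 12.3% of all genes tested. All imiquimod libraries lay above all sham libraries for 38, 40 and 36 of the 42 genes at days 2, 5 and 8 and for 41 in the start-day experiment, against 18.8%, 29.2%, 25.8% and 30.3% of all genes.

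The rise spanned a wide range among the members. The 3 largest changes at day 5 were those of Orc1 (2.81 ± 0.17, adjusted p 6.85e-20 by edgeR, standard error after the sign throughout for log2 fold changes), Mcm5 (2.39 ± 0.12) and Rrm2 (2.39 ± 0.16). The 3 smallest called changes at day 5 were those of Pold3 (0.31 ± 0.08), Rfc3 (0.33 ± 0.09) and Gins4 (0.44 ± 0.08). At day 2 Orc1 (2.56 ± 0.15), Rrm2 (2.05 ± 0.14) and Ticrr (1.96 ± 0.12) led, and at day 8 Orc1 (2.28 ± 0.15), Ticrr (2.22 ± 0.12) and Rrm2 (2.15 ± 0.14). The smallest called were Orc6 (0.16), Pold3 (0.34), Gins3 and Gins4 (both 0.40) at day 2 and Rfc3 (0.24), Pold3 (0.27) and Gins3 (0.34) at day 8. In the start-day experiment Pold3 (0.21), Rfc3 (0.32) and Gins4 (0.37) were the smallest called, and the largest were Ticrr (2.72 ± 0.10), Orc1 (2.49 ± 0.11) and Rrm2 (2.30 ± 0.09). Across the 42 genes the day 5 change and that of the start-day experiment, which share no library, had a Pearson r of 0.96 and a Spearman rho of 0.96, given as a description because genes of 1 library are not independent.

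Among origin factors, Orc1, the ATPase subunit of the origin recognition complex, and Orc6, its smallest subunit, lay at opposite ends of the list. Orc1 was at 1.13 to 1.78 CPM in day 5 sham ears (median 1.49) and at 8.70 to 13.8 CPM in day 5 imiquimod ears (median 10), with no overlap. Orc6 was at 20.3 to 21.9 CPM in day 5 sham ears (median 20.9) and at 20.4 to 26.3 CPM in day 5 imiquimod ears (median 22.2), and the groups overlapped. Orc6 was the only member not called at day 5 (0.12 ± 0.07, edgeR adjusted p 0.123), at day 8 (0.00 ± 0.06, adjusted p 0.995; 19.6 to 23.2 CPM in sham and 18.2 to 23.2 CPM in imiquimod ears) and in the start-day experiment (0.04 ± 0.06, adjusted p 0.514; 17.5 to 20.6 CPM and 18.3 to 22 CPM). At day 2 Orc6 passed at 0.16 ± 0.06 (edgeR adjusted p 0.0255), a call that was lost without imiquimod library 9, imiquimod library 10 or sham library 2. The loaders Cdc6 and Cdt1, which bring the helicase to origins, rose by 1.17 ± 0.12 and 1.41 ± 0.10 at day 5. Reads of Orc1 and Orc6 may include reads of Gm12743 and Vps35, whose exons overlap them on the other strand in the GRCm38 annotation, because the strand setting of the counting is not given in the sources used here.

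All 6 subunits of the MCM ring, the helicase core, rose in all 4 comparisons, with day 5 changes from 1.17 (Mcm7) to 2.39 (Mcm5). Mcm6 had the smallest p of its role at day 5 (1.32 ± 0.07, edgeR adjusted p 2.83e-22). It was at 44.8 to 50 CPM in day 5 sham ears (median 49.4) and 109 to 134 CPM in day 5 imiquimod ears (median 122). Mcm5 was at 20.7 to 26.6 CPM in day 5 sham ears (median 24.2) and 106 to 144 CPM in day 5 imiquimod ears (median 127). Neither gene's groups overlapped at any day. Per kilobase of transcript, the level in day 5 sham ears was 6.82 ± 1.52 CPM for Mcm2 (SD, n = 4), 7.08 ± 0.775 for Mcm5, 7.70 ± 0.491 for Mcm3, 11.4 ± 1.35 for Mcm4, 15.9 ± 0.959 for Mcm7 and 16.6 ± 0.827 for Mcm6. In day 5 imiquimod ears Mcm2 was at 25 ± 1.47 CPM per kilobase (SD, n = 6), Mcm4 at 29 ± 2.03, Mcm3 at 31.7 ± 2.55, Mcm7 at 35.6 ± 3.00, Mcm5 at 37.2 ± 3.68 and Mcm6 at 41.5 ± 3.39. The 3 subunits that were lowest per length in sham ears were those with the 3 largest rises. Both measures use the same sham libraries, so a low sham level by itself favours a large rise.

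Factors that activate the helicase were divided. Ticrr, which with Topbp1 brings Cdc45 to the loaded ring, was at 3.66 to 4.95 CPM in day 5 sham ears (median 4.58) and 18 to 25.7 CPM in day 5 imiquimod ears (median 22.9), a change of 2.32 ± 0.14 (edgeR adjusted p 6.34e-20). Mcm10, needed for the activated helicase to move, rose by 2.19 ± 0.16, and the GINS subunit Gins1 by 2.13 ± 0.14. The other 3 subunits of the same GINS complex changed far less, with Gins2 at 0.55 ± 0.12, Gins3 at 0.53 ± 0.14 and Gins4 at 0.44 ± 0.08 at day 5. All 4 passed the test in each of the 4 comparisons, but at day 8 the call of Gins3 (0.34 ± 0.13, edgeR adjusted p 0.0162) was lost without imiquimod library 46 or sham library 40. Cdc45, the partner of GINS in the helicase, rose by 0.97 ± 0.11. Ticrr, Gins2 and Cdc45 overlap exons of Kif7, Gse1 and Ufd1 on the other strand, so their reads may be shared with those genes. The same limit holds for 15 of the 42 members in all, among them Mcm7, Lig1 and Chaf1a. A further overlap, on the same strand, was found for 2 members, Mcm7 and Pole2.

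The 9 polymerase and primase subunits were all called at day 5, with a median of 0.90 and a range from 0.31 to 1.24 that overlapped that of the MCM genes. Pold2, the second subunit of the lagging-strand polymerase delta, had the smallest p among them, with 24.8 to 27.8 CPM in day 5 sham ears (median 25.7) and 45.3 to 50.5 CPM in day 5 imiquimod ears (median 49.4), a change of 0.90 ± 0.08 (edgeR adjusted p 3.23e-15). The leading-strand polymerase gene Pole rose by 1.19 ± 0.11, the primase subunit Prim2 by 1.24 ± 0.11, and Pold3, an accessory subunit of polymerase delta, by 0.31 ± 0.08. The groups of Pold3 overlapped at day 5 and at day 8.

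Pcna, the sliding clamp, was the most abundant member per length, at 50.3 ± 2.58 CPM per kilobase in day 5 sham ears (SD, n = 4) and 91.8 ± 3.92 in day 5 imiquimod ears (SD, n = 6). As CPM it went from 72.0 to 81.4 (median 76.0) to 131 to 148 (median 140), a change of 0.87 ± 0.06 (edgeR adjusted p 3.12e-17) with no overlap. The annotation holds 2 processed copies of Pcna, so reads could be split among them. Of the RFC subunits, which open the clamp and close it on DNA, Rfc5 rose by 0.92 ± 0.09, Rfc4 by 0.75 ± 0.12, Rfc2 by 0.56 ± 0.08 and Rfc3 by 0.33 ± 0.09. Dscc1, part of the alternative loader that serves sister chromatid cohesion, rose by 1.55 ± 0.22. Lig1, the ligase that seals Okazaki fragments, went from 32.5 to 37.8 CPM (median 35.8) to 79.7 to 94.0 CPM (median 84.1), and the flap nuclease gene Fen1 rose by 1.15 ± 0.09.

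Ribonucleotide reductase makes deoxynucleotides from ribonucleotides, and both its subunits were among the strong responders. Rrm1, the large subunit, was at 56.9 to 66.2 CPM in day 5 sham ears (median 60.7) and 194 to 214 CPM in day 5 imiquimod ears (median 201). Rrm2, the small subunit that is made in S phase, was at 21.8 to 23.6 CPM (median 22.9) and 105 to 143 CPM (median 118). No sham ear reached any imiquimod ear for either gene. Of the thymidylate genes, Tk1 (thymidine kinase) rose by 1.48 ± 0.11, Tyms (thymidylate synthase, which has a pseudogene in the annotation) by 1.37 ± 0.11 and Dut, which keeps uracil out of DNA, by 0.97 ± 0.12. Chaf1a, the large subunit of the chromatin assembly factor that places histones on new DNA, was at 16.9 to 20 CPM in day 5 sham ears (median 19.3) and 39.9 to 48.6 CPM in day 5 imiquimod ears (median 45.3). Its partner Chaf1b rose by 1.44 ± 0.12, and Uhrf1, which carries DNA methylation onto the new strand, by 1.73 ± 0.12.

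**Figure D2:**
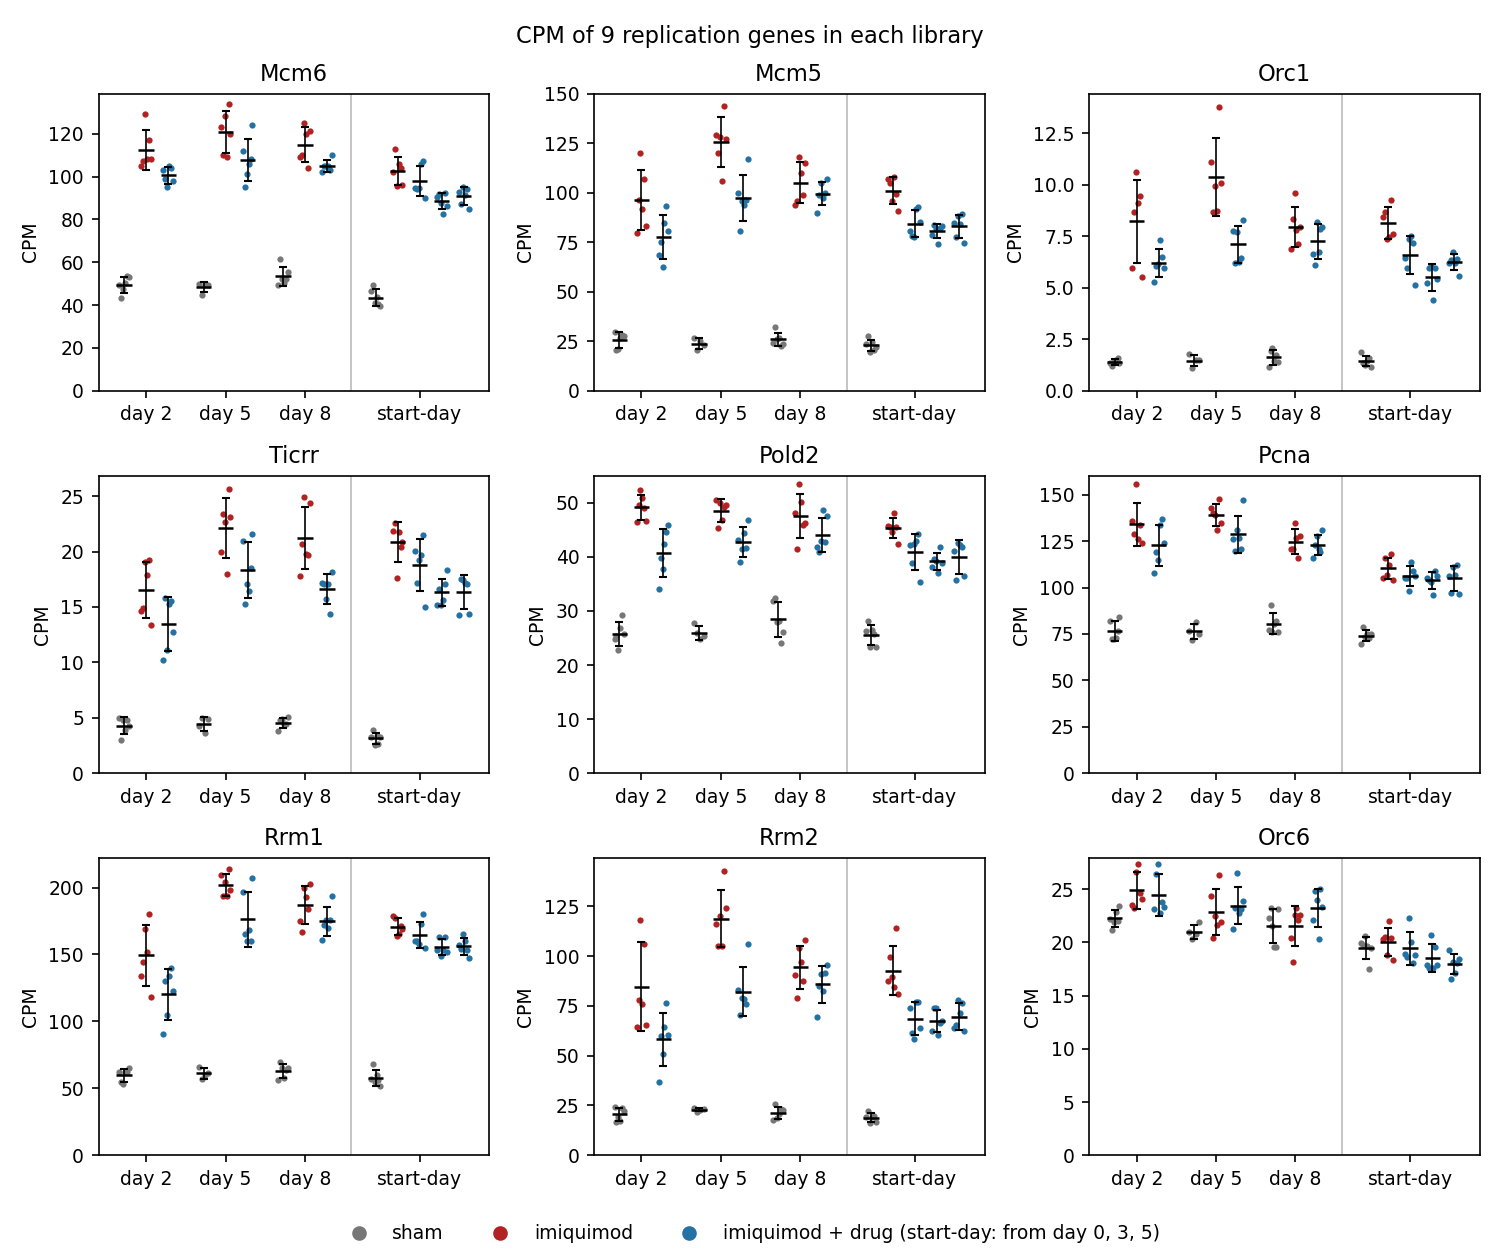
Level in CPM (vertical axis, from 0) of 9 replication genes in each library at day 2, day 5, day 8 and in the start-day experiment, with points for libraries, bars for group means and error bars for the SD. Sham points lie apart from imiquimod points in 8 of the panels, while the Orc6 panel shows overlapping groups.

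The promoters of the genes that moved together were read for the words that cell cycle regulators are known to bind. RefSeq promoters of build GRCm38.p6 matched 34 of the 42 genes, and the 250 bases before the start were searched on both strands for the E2F-type words TTTCCCGC, TTTCGCGC, TTTGCCGC and TTTGGCGC, the NF-Y-type word CCAAT, the CHR-type word TTTGAA and the Sp1-type word GGGCGG. Neighbouring E2F-type words could overlap each other. An E2F-type word was found in 9 of 34 members (26.5%) and in 2.16% of all 27025 genes of the table. CCAAT was found in 58.8% of members and 37.5% of all genes, GGGCGG in 73.5% and 35.4%, and TTTGAA in 14.7% and 18.3%. These are matches of letters and not binding sites. The 9 members with one of these exact E2F-type words had a median day 5 change of 1.17 (0.33 to 2.81). The 25 without one had a median of 1.15 (0.12 to 2.39). Other spellings of the E2F-type word were not searched, so the 25 may include genes that hold one. Whether the rise differs with E2F-type words in general was therefore not tested. The 5 windows below are shown because they belong to genes with large or well separated changes and hold no annotated exon: the role leaders Mcm6, Rrm1, Ticrr and Chaf1a, and Mcm5, which was added after its values were seen. Each gives 200 bases upstream of the start, 5′ to 3′ on the gene's strand, with E2F-type words in capitals. They lie at chr1:128359706-128359905 (minus strand, Mcm6), chr8:75109309-75109508 (plus, Mcm5), chr7:102441495-102441694 (plus, Rrm1), chr7:79659996-79660195 (plus, Ticrr) and chr17:56040216-56040415 (plus, Chaf1a) in GRCm38.p6.
Mcm6: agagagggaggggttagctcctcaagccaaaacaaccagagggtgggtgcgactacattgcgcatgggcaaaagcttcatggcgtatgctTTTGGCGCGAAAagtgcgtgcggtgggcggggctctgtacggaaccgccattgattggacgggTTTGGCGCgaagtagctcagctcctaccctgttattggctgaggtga
Mcm5: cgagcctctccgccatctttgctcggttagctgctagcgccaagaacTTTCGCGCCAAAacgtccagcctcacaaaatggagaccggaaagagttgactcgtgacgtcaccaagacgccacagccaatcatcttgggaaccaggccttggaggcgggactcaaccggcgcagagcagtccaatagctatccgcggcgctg
Rrm1: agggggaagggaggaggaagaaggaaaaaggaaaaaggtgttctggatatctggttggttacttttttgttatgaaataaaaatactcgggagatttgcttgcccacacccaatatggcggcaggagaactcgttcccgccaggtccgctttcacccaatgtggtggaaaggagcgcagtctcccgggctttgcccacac
Ticrr: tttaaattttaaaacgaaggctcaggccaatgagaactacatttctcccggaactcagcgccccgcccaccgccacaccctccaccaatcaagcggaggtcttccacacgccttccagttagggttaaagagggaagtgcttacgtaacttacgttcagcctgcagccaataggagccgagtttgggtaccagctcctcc
Chaf1a: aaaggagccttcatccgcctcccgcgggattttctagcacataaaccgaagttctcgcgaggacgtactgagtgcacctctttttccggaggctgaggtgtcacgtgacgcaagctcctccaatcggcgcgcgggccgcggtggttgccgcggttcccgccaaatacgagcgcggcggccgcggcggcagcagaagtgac
In Mcm6 and Mcm5 an E2F-type word on one strand overlapped one on the other, giving the longer capital runs. The 3 words of Mcm6 lay 102, 98 and 39 bases from the start and the 2 of Mcm5 lay 145 and 141 bases from it. The windows of Rrm1, Ticrr and Chaf1a held none of these exact E2F-type words but held CCAAT in either orientation 2, 3 and 1 times.

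The rise was in place by day 2 and changed modestly afterwards. From day 2 to day 5, 13 of 42 genes rose further in imiquimod ears (median of all 42 0.11, where 45.9% of genes were called and 22.6% called higher), and none fell. Rrm2 (0.49 ± 0.13), Rrm1 (0.44 ± 0.08) and Ticrr (0.43 ± 0.11) rose most, and Mcm4 (0.19 ± 0.08), Chaf1a (0.20 ± 0.07) and Prim2 (0.24 ± 0.09) least among those called. Without imiquimod libraries 9 and 11 of day 2 the count was 20, and without day 2 library 12 it was 8. Rrm1 went from 118 to 180 CPM at day 2 to 194 to 214 CPM at day 5 with no overlap. Lig1 and Rrm1 were the only 2 of 42 so separated, where 11.6% of all genes were higher without overlap. Such separation was thus no more common among the members than among all genes. From day 5 to day 8 only 2 genes were called, both lower: Orc1 (-0.38) and Pcna (-0.16), where 11.8% of genes were called and 5.88% called lower. That count was 0 without any 1 of day 5 libraries 25, 29 and 30 or day 8 libraries 44, 45, 47 and 48, 1 without day 5 library 26, and 5 without day 5 library 28 or day 8 library 46. In sham ears 1 gene, Prim2 (0.34), was higher at day 8 than at day 2, where 6.48% of genes were called and 3.12% called higher, and the count was 0 without sham libraries 3, 4 or 5 of day 2 or 38 of day 8 and 2 without library 6 of day 2 or 40 or 42 of day 8.

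A direct test found an imiquimod effect of unequal size across the 3 days for 5 of 42 genes, where 33.4% of all genes passed. They were Pold1 (edgeR adjusted p 0.0158), Rrm1 (0.0262), Mcm5 (0.0298), Prim2 (0.0402) and Pcna (0.0451). Mcm5 changed by 1.92 ± 0.10 at day 2, 2.39 ± 0.12 at day 5 and 2.02 ± 0.10 at day 8, and Rrm1 by 1.32 ± 0.08, 1.73 ± 0.10 and 1.57 ± 0.08. Pold1, the catalytic subunit of polymerase delta, ran the other way, with 0.79 ± 0.06, 0.50 ± 0.07 and 0.51 ± 0.06. The count was 3 without imiquimod library 7, 25 or 48 or sham library 19 or 22, and 2 without imiquimod library 29 or sham library 20. Between the day 8 libraries and the start-day experiment the imiquimod effect was larger in the latter for Ticrr (difference 0.55, edgeR adjusted p 0.00703), Cdt1 (0.30, adjusted p 0.0447) and Gins3 (0.45, adjusted p 0.0495), that is 3 of 42, where 21.4% of genes differed and 10.3% were larger. These differences come from a joint fit of both experiments, so they need not equal the gap between the changes fitted in each experiment alone.

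With the drug the summed level of the replication genes lay above sham in every library, and its median lay below that of imiquimod alone in each of the 6 comparisons. The summed level of the 42 genes with imiquimod and the drug was 1450 to 1800 CPM at day 2 (median 1620), 1630 to 2170 CPM at day 5 (median 1760) and 1660 to 1900 CPM at day 8 (median 1800). In the start-day experiment it was 1490 to 1730 CPM with the drug from day 0 (median 1560), 1450 to 1580 CPM from day 3 (median 1510) and 1420 to 1630 CPM from day 5 (median 1540). All libraries begun on day 3 or day 5 lay below the lowest imiquimod library of that experiment (1640 CPM), while the other groups overlapped their imiquimod group. Expressed from the group means, 76.9%, 78.8% and 88.4% of the imiquimod rise remained at days 2, 5 and 8, and 84.7%, 77.8% and 79.2% with the drug from days 0, 3 and 5. The day 2 share rests in part on imiquimod libraries 9 and 11, at 2120 and 1990 CPM against at most 1810 CPM in the rest of their group. It was not computed without them, so a lower share at day 2 than at day 8 was not shown. Against sham, 40, 42 and 41 of 42 genes were higher with the drug at days 2, 5 and 8 (medians 0.87, 1.00 and 0.93, where 44.2%, 60.3% and 66.8% of genes were called and 24.2%, 31.1% and 34.2% called higher), and 40 with the drug from day 0 (median 1.02, 74.3% called and 36.7% called higher). The members not called there were Orc6 (0.14, adjusted p 0.0680 at day 2; 0.11, adjusted p 0.118 at day 8; 0.00, adjusted p 0.969 from day 0), Gins3 at day 2 (0.20, adjusted p 0.206; edgeR) and Pold3 from day 0 (0.11, adjusted p 0.0548).

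At day 5, 16 of 42 genes were lower with the drug than with imiquimod alone and none was higher, with a median of -0.18 over the 42 (edgeR, 35.4% of genes called and 17.2% called lower). Orc1 (-0.55 ± 0.13, adjusted p 0.000731), Rrm2 (-0.54 ± 0.13, adjusted p 0.00109) and Mcm5 (-0.37 ± 0.10, adjusted p 0.00230) fell most by edgeR, and Mcm6 (-0.16 ± 0.06), Lig1 (-0.17 ± 0.07), Pold2 (-0.18 ± 0.06) and Chaf1a (-0.18 ± 0.07) least among those called. Ticrr (-0.28 ± 0.11) and Rrm1 (-0.20 ± 0.08) fell as well. Pcna, at -0.12 ± 0.05 (edgeR adjusted p 0.0951), did not pass. Orc1 with the drug was at 6.23 to 8.27 CPM (median 7.09), below every imiquimod library, and it was the only one of the 42 so separated at day 5, where 5.47% of all genes were. Such separation was thus no more common among the members than among all genes. Rrm2 with the drug was at 70.4 to 106 CPM (median 78.6) and Mcm5 at 80.8 to 117 CPM (median 96.4), each overlapping imiquimod through 1 high library. That library, drug library 36, had a summed level of 2170 CPM and a summed neutrophil marker level of 4530 CPM, the highest of its group. Without it 27 genes were called lower, and without drug libraries 32, 33 or 35 the count was 7, 10 or 9. Without imiquimod libraries 27, 29 or 30 it was 9, 8 or 10. The share of all genes called in these fits was not kept, so a shift particular to the members was not shown. Under every alternative other than a limit on the size of the change, 6 genes stayed called: Mcm2, Mcm4, Mcm5, Mcm7, Orc1 and Rrm2. All 6 MCM genes were among the 16, against 1 of 9 polymerase and primase genes and 1 of 6 clamp genes. That division was not stable, as the calls of Mcm3 and Mcm6 were lost under some alternatives. Without drug library 36, Pole, Prim2, Pola1, Pold3, Pcna, Rfc2 and Dscc1 were called as well. A difference between roles was not tested.

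At day 2, 11 of 42 genes were lower with the drug (median -0.17, where 16.5% of genes were called and 9.61% called lower), but none of these calls held when imiquimod libraries 9 and 11 were left out, or when the 2 groups were fitted alone (0 called in edgeR, with 18 members at an unadjusted p under 0.05). Rrm2 (-0.54 ± 0.13, edgeR adjusted p 0.00471), Orc1 (-0.41 ± 0.13) and Mcm10 (-0.37 ± 0.13) had the largest changes, and Mcm6 (-0.16 ± 0.06), Chaf1a (-0.21 ± 0.07) and Mcm2 (-0.25 ± 0.09) the smallest. Rrm1 (-0.31 ± 0.08) and Pold2 (-0.27 ± 0.07) were called as well, while Ticrr (-0.30 ± 0.11, edgeR adjusted p 0.0606), Lig1 (-0.12 ± 0.07) and Pcna (-0.13 ± 0.06) were not. The count was 4 without drug library 13, 6 without drug library 15, 4 without imiquimod library 9 and 3 without imiquimod library 11. Pold2 and Tyms were separated, with all drug libraries below all imiquimod libraries (34.1 to 45.9 against 46.4 to 52.4 CPM for Pold2), where 0.777% of all genes were.

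At day 8 none of the 42 genes was called by edgeR, with a median of -0.08 and 4 genes lower at an unadjusted p under 0.05, where 1.56% of genes were called and 0.335% called lower. Ticrr had the smallest adjusted p (-0.35 ± 0.11, edgeR adjusted p 0.0914), with 14.4 to 18.2 CPM with the drug and 17.8 to 24.9 CPM without. DESeq2 called none either, limma voom called 1 and the fit of the 2 groups alone 1, and the edgeR count was 1 without imiquimod library 44. No member's drug libraries all lay below its imiquimod libraries, where 0.628% of all genes had them so. Rrm2, with 69.3 to 95.5 CPM with the drug (median 87.9) and 79.2 to 108 CPM without (median 93.7), changed by -0.14 ± 0.13, and Orc1 by -0.13 ± 0.13. The drug effect did not pass as different among the 3 days for any member (edgeR, smallest adjusted p 0.0799, 1 gene at an unadjusted p under 0.05, 7.99% of genes called), and the count was 1 without drug library 51 of day 8, so a difference in drug effect between day 5 and day 8 was not shown. Nor did the drug effect pass as different between day 8 and the start-day group begun on day 0 for any member (edgeR, 0 at an unadjusted p under 0.05, 0 by DESeq2, 0.828% of genes called).

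Of the 42 genes, 14, 19 and 21 were lower than with imiquimod alone when the drug began on day 0, day 3 and day 5, and the 3 comparisons share the same imiquimod libraries. The day of sampling may differ from that of imiquimod in the day 3 and day 5 groups. With the drug from day 0, 14 of 42 were lower and none higher (median -0.10, 35.1% of genes called and 16.9% called lower), led by Rrm2 (-0.43 ± 0.09, edgeR adjusted p 0.000267), Orc1 (-0.30 ± 0.10) and Mcm5 (-0.26 ± 0.06), with Rfc5 (-0.13 ± 0.05), Pold2 (-0.14 ± 0.05), Pole (-0.15 ± 0.06) and Pold1 (-0.15 ± 0.05) the smallest called. The count was 8 without drug library 30 and 9 without imiquimod library 7 or 11. With the drug from day 3, 19 were lower and 1 higher (median -0.17, 34.3% of genes called, 16.4% lower and 18% higher). Orc1 (-0.56 ± 0.10, edgeR adjusted p 4.36e-05), Rrm2 (-0.46 ± 0.09) and Ticrr (-0.35 ± 0.08) fell most. Rrm1 (-0.14 ± 0.05), Prim2 (-0.16 ± 0.06) and Pola2 (-0.17 ± 0.06), the second subunit of polymerase alpha, fell least. With the drug from day 5, 21 were lower and none higher (median -0.16, 27.7% of genes called and 12.7% called lower), led by Rrm2 (-0.41 ± 0.09, edgeR adjusted p 0.000648), Orc1 (-0.38 ± 0.10) and Ticrr (-0.35 ± 0.08). Rrm1 (-0.13 ± 0.05), Pold1 (-0.16 ± 0.05) and Orc6 (-0.16 ± 0.06) were the smallest called, and the count was 13 without drug library 18.

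Orc1 in the start-day experiment was at 7.39 to 9.28 CPM with imiquimod (median 8.02), 5.16 to 7.53 CPM with the drug from day 0 (median 6.83), 4.39 to 6.07 CPM from day 3 (median 5.69) and 5.59 to 6.73 CPM from day 5 (median 6.28), against 1.14 to 1.88 CPM in sham ears. Rrm2 was at 80.8 to 114 CPM with imiquimod (median 88.5), 58.6 to 77.2 CPM from day 0, 60.5 to 73.9 CPM from day 3 and 62.2 to 78.0 CPM from day 5, each group wholly below imiquimod and above the 16.1 to 22.1 CPM of sham ears. Groups did not overlap for 4 genes from day 0 (Mcm2, Mcm3, Mcm4 and Rrm2), 12 from day 3 and 6 from day 5 (Mcm3, Mcm5, Mcm6, Orc1, Rrm2 and Ticrr), where 7.87%, 7.65% and 5.01% of all genes were so separated downward. The count from day 0 was thus near the share of all genes. Under every alternative other than the limit on size, 6, 16 and 12 of the calls held from days 0, 3 and 5. The drug from day 5 compared with the drug from day 0 gave no called member in edgeR (5 at an unadjusted p under 0.05, 0 by DESeq2, 0.0217% of genes called), with Orc1 changing by -0.08 and Rrm2 by 0.02.

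Gins2 was the only member called in the other direction. With the drug from day 3 it rose by 0.20 ± 0.07 (edgeR adjusted p 0.0372), at 12.7 to 16.1 CPM (median 13.3) against 10.9 to 13.7 CPM with imiquimod (median 12), and the groups overlapped. Its value was 0.17 from day 0 (adjusted p 0.0696) and 0.10 from day 5 (adjusted p 0.342; edgeR). The call was lost with RLE scaling, without the filter on low counts, and without drug library 19 or 23 or imiquimod library 7, 8, 9 or 11. Exons of Gse1 overlap Gins2 on the other strand, so its reads may include those of Gse1.

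**Figure D3:**
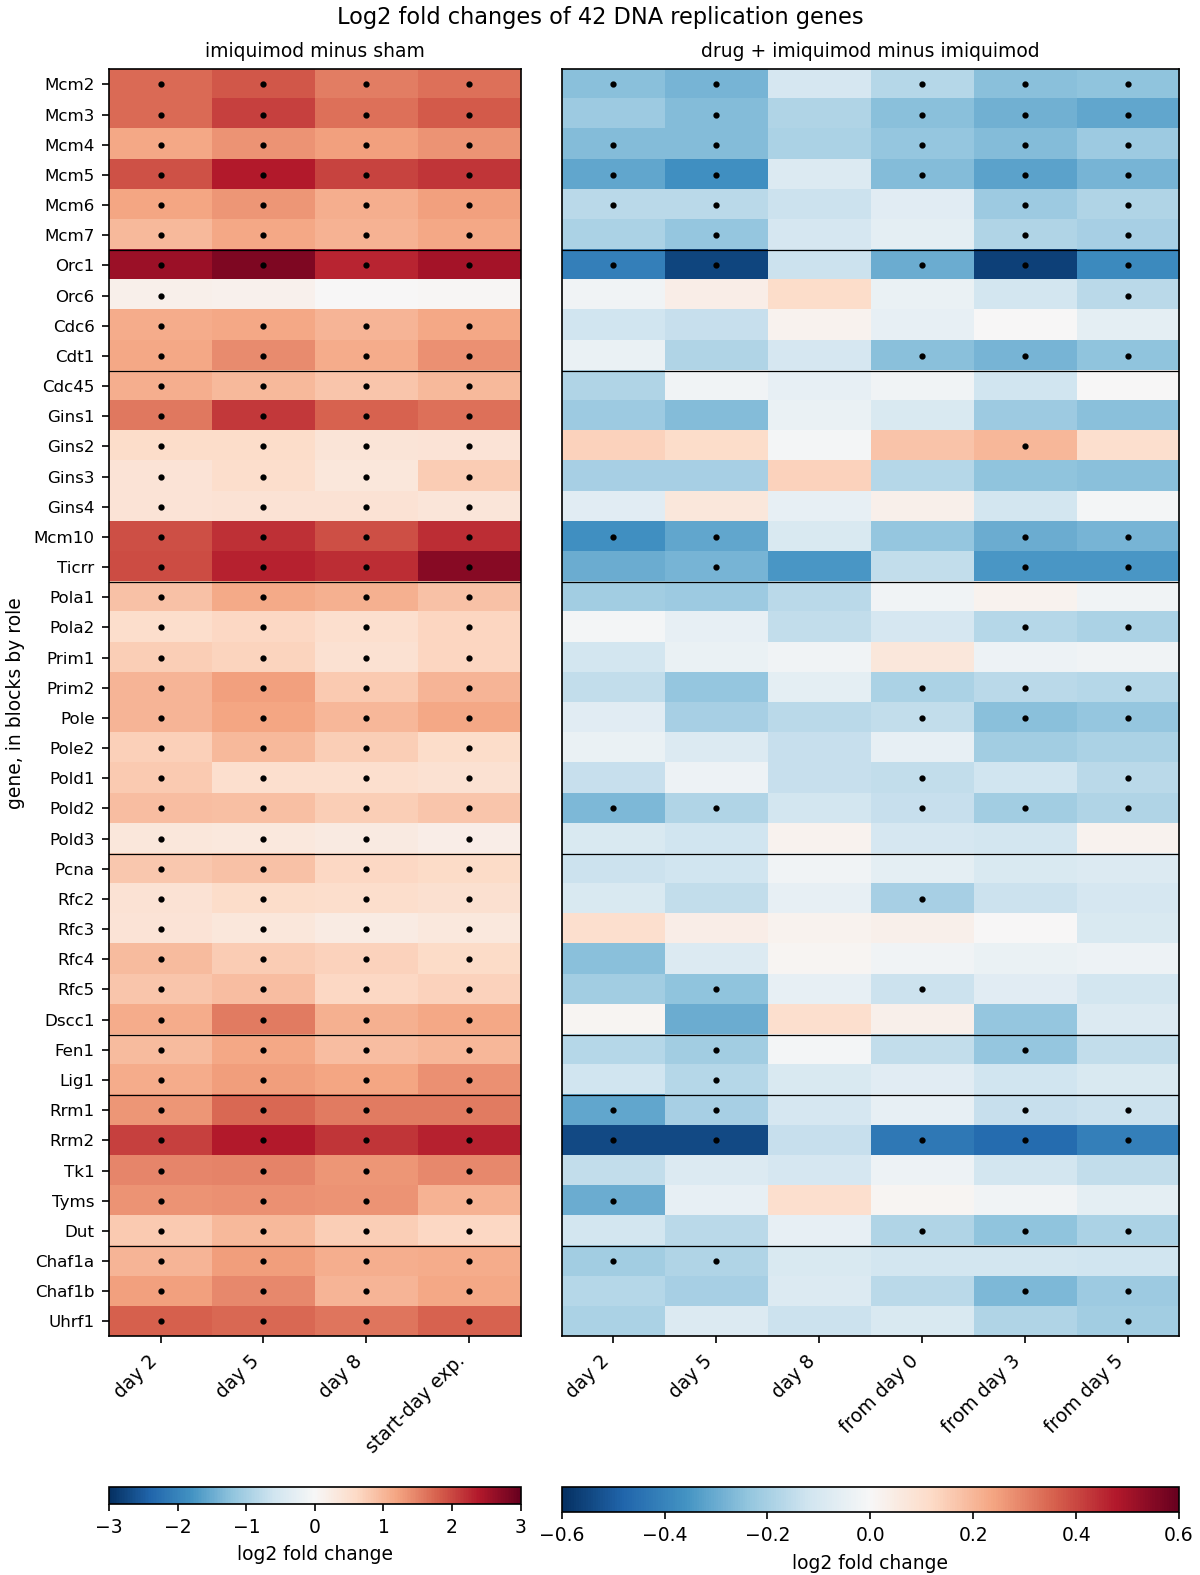
Log2 fold change (colour) of each of the 42 genes (rows, in blocks by role) for imiquimod minus sham on the left and drug minus imiquimod on the right (columns are days or start days), with dots where the edgeR adjusted p was under 0.05. The left colour scale runs to 3 and the right one to 0.6, and the right panel is blue for most genes with day 8 free of dots.

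Over the 6 drug comparisons, which share libraries within the start-day experiment, 6 genes were called lower in 5 of them: Mcm2, Mcm4, Mcm5, Orc1, Pold2 and Rrm2. For each of the 6, 1 of these comparisons was day 2, where no call held under every alternative. Calls of Pold2 at day 5 and from day 0, and of Mcm2 and Orc1 from day 0, were also lost under some alternatives. The share of all genes called lower as often was not computed. A further 15 genes were called lower in none, among them Pcna, Tk1, Cdc6, Cdc45, Gins1 and Pola1. Of these, Pcna, Gins1 and Pola1 were called at day 5 with limma voom or without drug library 36. Pcna and Gins1 were called there with DESeq2 as well, and Gins1 also with the drug from day 5 with limma voom or DESeq2. The lack of a call did not show that these genes were unchanged. No member changed by 1 or more on the log2 scale between drug and imiquimod in any of the 6, where called decreases of that size made up 0.942%, 2.51% and 0.0266% of all genes at days 2, 5 and 8 and 1.39%, 1.11% and 0.749% from days 0, 3 and 5. Genes with a larger rise tended to have a larger drug decrease: across the 42 genes the day 5 imiquimod change and the change with the drug from day 3, which share no library, had a Pearson r of -0.70 and a Spearman rho of -0.66, given as a description over genes. The 14 genes with the largest day 5 rise had a median change from day 3 of -0.28 (-0.56 to -0.11), and the other 28 a median of -0.12 (-0.26 to 0.20). For the drug from day 0 and from day 5 the r was -0.56 and -0.71, and for the start-day imiquimod change against the day 5 drug change it was -0.76. Whether a member's drug change exceeded what its rise alone would give was not tested.

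**Figure D4:**
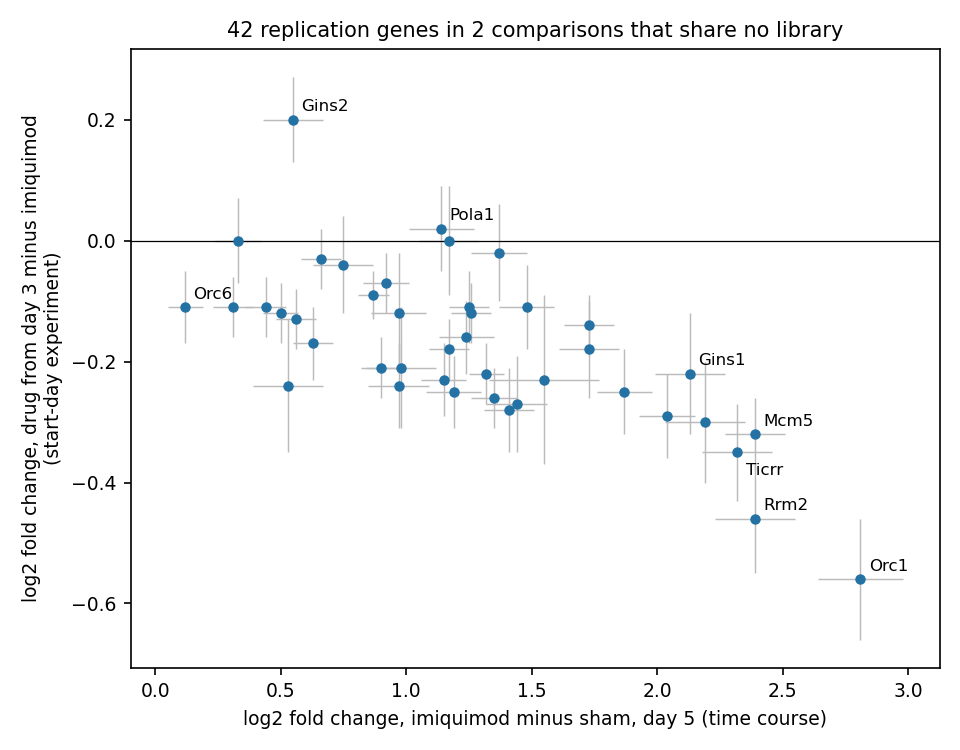
Log2 fold change of each of the 42 genes with imiquimod against sham at day 5 (horizontal axis) and with the drug from day 3 against imiquimod (vertical axis), with bars of 1 standard error. Orc1 and Rrm2 sit at the lower right, Orc6 near 0 on the left, and Gins2 lies highest, above 0, with a call that was lost under several alternatives.

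Marker sums of other cell types changed in both directions at day 5. The 6 neutrophil markers summed to 4980 to 7390 CPM in day 5 imiquimod ears, 337 to 4530 CPM with the drug and 3.15 to 5.61 CPM in sham ears, and 6 of 6 were higher with imiquimod and 6 of 6 lower with the drug. In the start-day experiment they summed to 7130 to 9560 CPM with imiquimod and 1890 to 6040 CPM over the 3 drug groups, with 5, 5 and 4 of 5 tested markers lower. The defining marker Ly6g was at 0 in all 4 day 5 sham libraries and at 0.541 to 1.62 CPM in day 5 imiquimod ears. The 6 macrophage and monocyte markers summed to 392 to 672 CPM in day 5 imiquimod ears and 243 to 526 CPM with the drug, 6 of 6 being lower. The 7 basal keratinocyte markers summed to 16800 to 17900 CPM in day 5 sham ears, 27700 to 31800 CPM with imiquimod and 24000 to 29700 CPM with the drug, with 3 of 7 higher and 3 lower with imiquimod and 2 higher and 3 lower with the drug. The 5 suprabasal markers summed to 16500 to 27900 CPM with imiquimod and 21600 to 39500 CPM with the drug at day 5, 4 of 5 being higher with the drug. Other sums were lower with imiquimod. The 3 Schwann cell markers summed to 567 to 741 CPM in day 5 sham ears, 178 to 233 CPM with imiquimod and 269 to 384 CPM with the drug, with 3 of 3 lower with imiquimod and 3 of 3 higher with the drug. The 3 adipocyte markers, at 77.8 to 99.9, 24.1 to 34.8 and 36.4 to 77.3 CPM in the same groups, had the same counts. The 3 skeletal muscle markers summed to 1800 to 2300, 647 to 1160 and 724 to 1470 CPM (3 of 3 lower with imiquimod, 1 of 3 higher with the drug) and the 3 cartilage markers to 349 to 457, 183 to 229 and 212 to 355 CPM (2 of 3 lower, 1 of 3 higher). T cell markers summed to 44 to 52.6, 16 to 29.7 and 18.6 to 24.6 CPM, and Langerhans and dendritic cell markers to 123 to 149, 81.2 to 97.4 and 102 to 138 CPM. The part of all these cell types in the changes of the replication genes was not tested.

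Other genes of the cell cycle, from lists chosen for their role, rose with the replication genes. Of 43 other replication and S phase genes, 38, 40 and 36 were higher with imiquimod at days 2, 5 and 8 and 36 in the start-day experiment. Their medians were 0.61, 0.71, 0.64 and 0.68, where 29.2%, 34.6%, 34.5% and 38.1% of all genes were called higher. Dbf4, the activator of the kinase that fires origins, rose most at day 5 (2.49 ± 0.14), followed by Samhd1, which degrades deoxynucleotides (1.92 ± 0.17), and Hells, a chromatin remodeller (1.90 ± 0.13). Rrm2b, the ribonucleotide reductase subunit used outside S phase, fell by 0.79 on the log2 scale and Mcm9 by 0.26. At day 5, 12 of the 43 were lower with the drug and none higher, where 17.2% of all genes were lower and 18.3% higher, with Samhd1 at -0.69 ± 0.14 and Dbf4 at -0.50 ± 0.11.

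All 20 mitosis genes rose in each of the 4 imiquimod comparisons, with medians of 1.77, 2.09, 1.99 and 2.03. Of all genes, 29.2%, 34.6%, 34.5% and 38.1% were called higher there. Plk1 (2.56 ± 0.18), a mitotic kinase, and Cdc20 (2.48 ± 0.17), which triggers anaphase, led at day 5. With the drug, 11, 8 and 0 of 20 were lower at days 2, 5 and 8, where 9.61%, 17.2% and 0.335% of all genes were. At day 2 none of the 11 was called with the 2 groups fitted alone, a fit by edgeR that called 0 of 16355 genes, with 4612 at an unadjusted p under 0.05. From days 0, 3 and 5, 3, 11 and 5 were lower, where 16.9%, 16.4% and 12.7% of all genes were, so the count from day 0 was near that share. From day 0, 1 was higher. Mki67, the proliferation marker gene, was not called at day 5 (-0.12) or with the drug from day 3 (0.01).

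Genes of G1/S control changed in both directions, with 20 of 32 tested higher and 7 lower at day 5 (median 0.68). Of all genes, 34.6% were called higher and 35.9% lower in that comparison. E2f7 (3.54 ± 0.28) and E2f8 (2.35 ± 0.16), repressors that switch replication genes off late in S phase, and Ccne1 (2.97 ± 0.21), the cyclin of S phase entry, rose most, while the cyclin gene Ccnd2 fell by 1.88 on the log2 scale. With the drug at day 5, 10 of 32 fell and 7 rose, where 17.2% of all genes were lower and 18.3% higher, so the count that rose was near the share of all genes. Among those that fell were E2f7 at -0.92 ± 0.21 and E2f8 at -0.67 ± 0.13. These values describe the lists and were not tested against other genes.

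**Figure D5:**
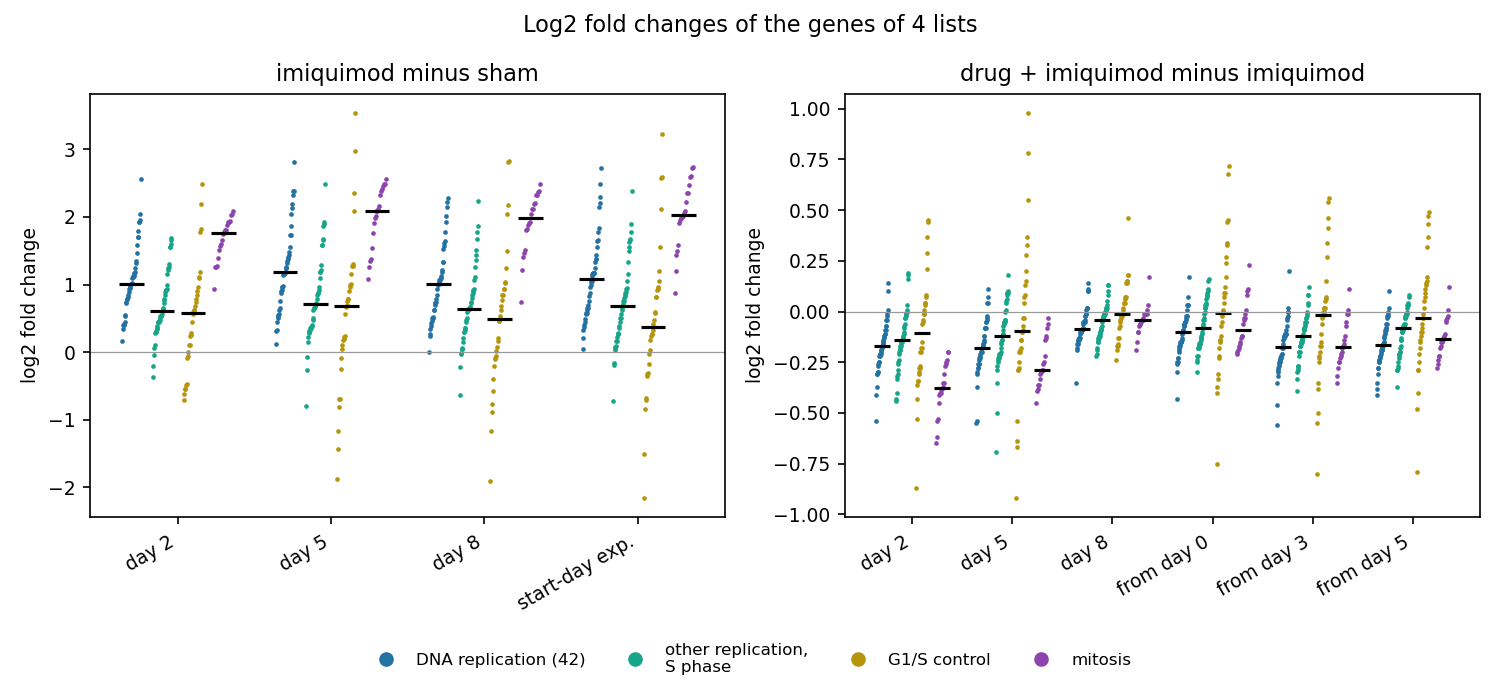
Log2 fold changes (vertical axis) of the tested genes of 4 lists, with 1 point per gene and a bar at the median, for imiquimod minus sham (left) and drug minus imiquimod (right) by day or start day (horizontal axis). Mitosis genes have the highest medians on the left (2.09 at day 5 against 1.18 for the 42 replication genes), and on the right the medians of all 4 lists lie at or below 0.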

How the data were processed

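The authors deposited estimated counts per gene, made with salmon per the names of the deposited tables and against GRCm39 per the submitters' processing notes. Annotation release and strand setting: not given in the sources used here. Tables were matched to samples by title, with 0 columns left over. Estimated counts were rounded. Each experiment was fitted with edgeR 4.0.16 in R 4.3.3: filterByExpr on group, TMM scaling, robust quasi-likelihood F test, 1 coefficient per group, Benjamini-Hochberg over all tested genes, called at an adjusted p under 0.05. A joint fit of the 14 groups tested differences between experiments. The test was checked on simulated data. CPM used TMM-scaled library totals. Alternatives were DESeq2 1.42.0, RLE scaling, 2 other filters, voom in limma 3.58.1, compared groups alone, a log2 limit of 1 and leaving out libraries. Gene positions, exon overlaps and transcript lengths came from GRCm38. Figures used matplotlib 3.10.9.

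The members, lists and alternatives were chosen with earlier results of these data known. Any member could be named; by rule, levels are given for the smallest p of each role at day 5 and for members against the rest, and changes for the 3 highest and 3 lowest called.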

Additional observations from a re-analysis of the deposited data

Results flagged for a closer look

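Of 126 checks for a library far from its group, over the summed level and 8 genes in 14 groups, 2 stood out, where chance gives about 1 in 20. Sham library 38 of day 8 had a summed replication gene level of 1020 CPM, above 851 to 895 CPM in the other 5, and its summed basal keratinocyte markers (14500 CPM) were the lowest of that group. Mcm6 in sham library 20 of day 5 was at 44.8 CPM, below the other 3 (49.2 to 50 CPM).

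The imiquimod effect differed among days, by an edgeR test of the difference, for 5 of 42 members. That was a smaller share than the 33.4% of all genes that passed. Under the alternatives the count ran from 2 to 7. The 5 were Pold1 (edgeR adjusted p 0.0158), Rrm1 (0.0262), Mcm5 (0.0298), Prim2 (0.0402) and Pcna (0.0451). Pcna changed by 0.81 at day 2, 0.87 at day 5 and 0.63 at day 8, and Prim2 by 1.01, 1.24 and 0.79.

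The imiquimod effect was larger in the start-day experiment than at day 8 of the time course for 3 of 42 members. That was a smaller share than the 10.3% of all genes that were larger there. Under other processing settings the count ran from 1 to 5. The 3 were Ticrr (difference 0.55, edgeR adjusted p 0.00703), Cdt1 (0.30, 0.0447) and Gins3 (0.45, 0.0495), all from a joint fit of both experiments.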

How the results depend on the processing

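No paired analysis was possible because the compared groups share no replicate numbers. No member changed direction past the threshold under any alternative, and RLE and TMM scaling differed by under 0.03 on the log2 scale. Counts below are members called, and causes were not tested.

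With a log2 limit of 1 the counts were 23, 25 and 23 for imiquimod at days 2, 5 and 8 and 24 in the start-day experiment. For the drug against sham they were 16, 21 and 17, and 22 from day 0. Such increases made up 3.68%, 8.2% and 9.29% of all genes tested at days 2, 5 and 8, and 10% from day 0. They were 0 for the drug against imiquimod at days 2 and 5 and from days 0, 3 and 5, and 0 between days in imiquimod (day 5 against 2, day 8 against 5) and sham ears. For the drug at day 2 the count of 11 was 7 with no filter, 4 with voom, and 0 with the compared groups alone or without imiquimod libraries 9 and 11. For the drug at day 5 the count of 16 was 10 with no filter and 25 with voom, and at day 8 it was 1 with voom and 1 with the compared groups alone. Imiquimod at day 5 against day 2 gave 20 without libraries 9 and 11. Day 8 against day 5 gave 5 with RLE, 0 with no filter, 7 with voom, 7 with DESeq2 and 6 with the compared groups alone. Sham day 8 against day 2 gave 0 with voom and 0 with the compared groups alone. The imiquimod effect differed among days for 2 members with no filter, and between experiments for 1 with no filter, 5 with the 1 CPM filter and 5 with DESeq2.

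Leaving out 1 library at a time gave 41 to 42, 41 to 41 and 40 to 41 for imiquimod at days 2, 5 and 8, and 41 to 41 in the start-day experiment. For the drug against imiquimod it gave 3 to 15, 7 to 27 and 0 to 1 at days 2, 5 and 8, and 8 to 15, 16 to 21 and 13 to 23 from days 0, 3 and 5. For the drug against sham it gave 40 to 41, 39 to 42 and 41 to 42, and 40 to 41 from day 0. Day 5 against day 2 gave 8 to 16, day 8 against day 5 gave 0 to 5, sham ears gave 0 to 2, and the drug from day 5 against day 0 gave 0 to 0. The effect among days gave 2 to 7 for imiquimod and 0 to 1 for the drug. The share of all genes called was not kept for any of these fits.

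Depth limits the low members most: Orc1 in sham ears had 1.13 to 2.06 CPM in the time course, and the shallowest library, imiquimod library 11 of day 2, had 13098687 counts. Bulk tissue gives no cell of origin.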
